A study of Mus musculus with 360 samples.

Results

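Cells with reads of Col2a1, the gene of type II collagen, were described among sorted mouse suture and growth plate cells. A cell was chosen by its own counts. It had to hold at least 500 genes with a read, at least 10000 reads in all and at least 5 reads of Col2a1. Of 360 deposited cells, 325 passed the first pair of criteria, and 82 of these (25.2%) held the Col2a1 reads and are called Col2a1 cells here. The other 243 passing cells were the comparison, always within the same table. Because Col2a1 reads chose the cells, every difference from the other cells is given as a description, with no test.

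All cells were CD51+;CD200+ cells, sorted as negative for CD105, 6C3, Thy1.2, Thy1.1, Tie2, Ter119 and CD45, from wild-type CD-1 mice at postnatal day 3. They came from 3 sutures, the seams of fibrous tissue where skull bones meet, namely the sagittal (SAG), the posterior frontal (PF) and the coronal suture (COR), and from the growth plate of the tibia (GP), where a long bone lengthens. Each tissue had 2 plates of single cells, 1 table of read counts per plate. No animal was named for any cell, so cells are not replicates, each tissue is 1 sample, and plate and tissue cannot be told apart.

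Type II collagen fibrils carry types IX and XI collagen on and in them, and aggrecan (Acan), bound to hyaluronan through the link protein Hapln1, fills the space between the fibrils. The transcription factor SOX9, with SOX5 and SOX6, switches these genes on in chondrocytes. In the growth plate, chondrocytes divide, enlarge into hypertrophic cells that make type X collagen (Col10a1), and are then replaced by bone, whereas the bones of the skull vault form largely without a cartilage stage.

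SAG plate 2 stood apart from the other plates. The ribosomal RNA gene Rn45s held a median of 86.2% of the reads of its Col2a1 cells and 86.5% of those of its other cells, against medians of 18.3% to 30.3% on the other plates. Its Col2a1 cells had a median of 884 genes with a read and its other cells 871, against 2956 and 2788 on SAG plate 1. Rn45s was therefore left out of all totals. Most values that use SAG plate 2 are given by plate or with and without it, but some pooled counts include it. Without it, 49 of 269 passing cells (18.2%) were Col2a1 cells.

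The Col2a1 cells were very unevenly spread over the tissues. They were 22 of 30 passing cells of SAG plate 1, or 73.3% (95% exact Clopper-Pearson interval 54.1% to 87.7%), and on SAG plate 2 they were 33 of 56, or 58.9% (44.98% to 71.9%). They were 16 of 58 cells of GP plate 2 (27.6%, 16.7% to 40.9%), and on GP plate 1 they were 3 of 20 (15%, 3.21% to 37.9%). Both SAG plates lay above every other plate, with intervals that did not overlap those of any plate of another tissue. PF plate 2 held 6 of 53 cells (11.3%, 4.27% to 23.03%), PF plate 1 held 1 of 34 and COR plate 2 held 1 of 58. COR plate 1 held 0 of 16 cells, where a limit of 3 cells allows a share of up to 18.75% and the exact interval one of up to 20.6%. The intervals hold the error of counting cells and not the spread between animals. By tissue, the share was 63.95% in SAG, 24.4% in GP, 8.05% in PF and 1.35% in COR.

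The classes differed in depth in both directions. Outside Rn45s, the Col2a1 cells of SAG plate 1 held a median of 206883 reads and the other cells 188426. The medians were 192982 and 168363 on SAG plate 2, on GP plate 2 they were 477896 and 401429, and on GP plate 1 they were 227388 and 224376. On PF plate 2 the Col2a1 cells were the shallower class, at 421922 against 519219 reads. On 4 of these plates the Col2a1 cells were thus the deeper class.

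The levels that chose the cells covered several orders of magnitude. The 22 cells of SAG plate 1 held 34 to 31240 Col2a1 reads, with a median of 639.5 reads, or 112, 2827 and 68235 CPM (counts per 1000000 reads of the cell, with Rn45s left out of that total) as lowest, median and highest. The 33 cells of SAG plate 2 ran from 7 to 16302 reads, with a median of 803 reads and of 4620 CPM. Those of GP plate 2, 16 cells, ran from 6 to 42019 reads, with a median of 354.5 reads and of 882 CPM. The 6 cells of PF plate 2 held 35 to 917 reads (median 242 CPM) and the 3 cells of GP plate 1 held 41, 55 and 168 reads (84.4, 394 and 739 CPM). SAG and GP plate 2 therefore held the cells with the highest Col2a1, and PF, COR and GP plate 1 held cells with low Col2a1. Much of the summed signal came from single wells. The top cell held 48.3% of the Col2a1 reads of SAG plate 1, 21.9% of those of SAG plate 2, 63.1% of those of GP plate 2, 64.04% of those of PF plate 2 and 63.6% of those of GP plate 1.

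Few cells lay near the limit of 5 reads. Just outside it were 5 cells with 1 read each, on COR plate 1, COR plate 2, GP plate 2, PF plate 2 and SAG plate 2, and well B8 of GP plate 2 with 3 reads. Just inside were well C2 of GP plate 2 with 6 reads, well B12 of PF plate 1 and well A10 of SAG plate 2 with 7 each, well D9 of GP plate 2 with 8 and well D7 of GP plate 2 with 15.

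**Figure D1:**
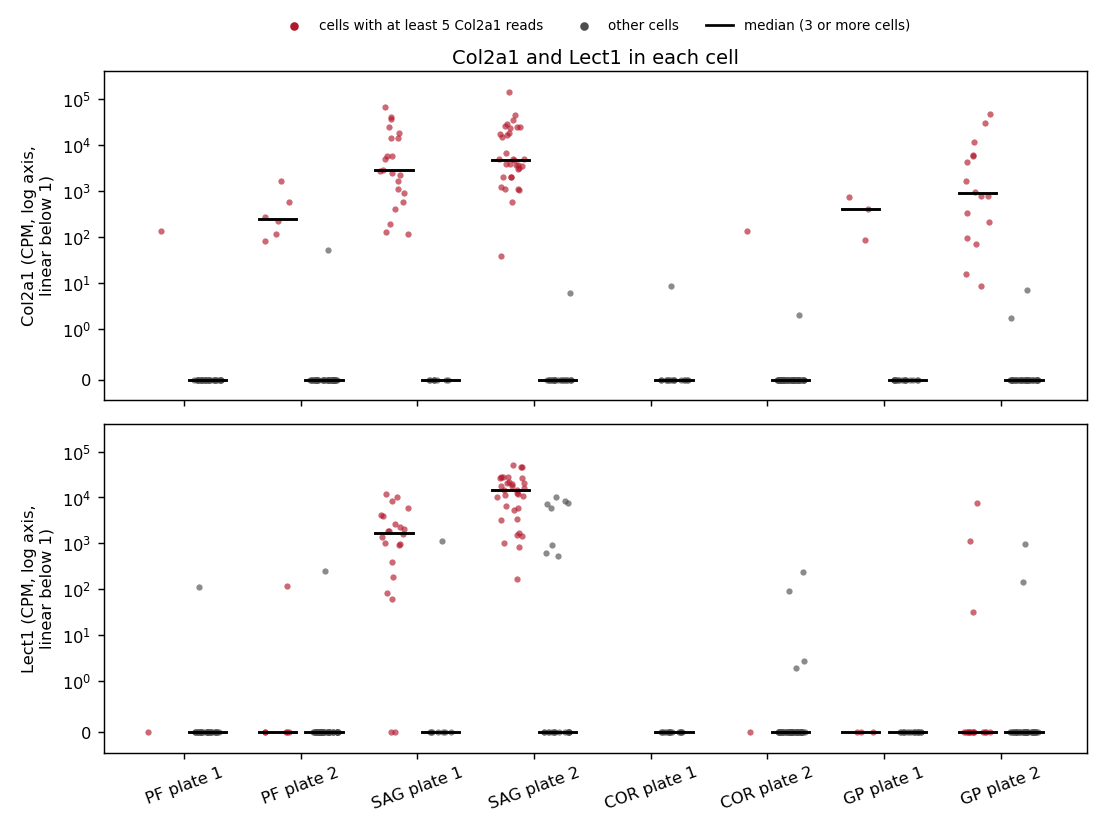
Each point is 1 cell and shows its Col2a1 (top) and Lect1 (bottom) level in CPM, on an axis that is logarithmic above 1 and linear below, by plate. Red points are Col2a1 cells, grey points are other cells, and bars are medians of classes with 3 or more cells. The red and grey points of the top panel were separated by the choice of cells itself, and the Lect1 points of SAG plate 2 are all at 169 CPM or more in the Col2a1 cells.

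The cartilage label was then described with 4 genes that the choice of cells did not use: Lect1, which encodes the cartilage glycoprotein chondromodulin, Col9a1, a chain of type IX collagen, Acan and Sox9. These genes were chosen with earlier results of these data known, so their counts are no independent check. At least 2 of the 4 had a read in 70 of 82 Col2a1 cells (85.4%, 75.8% to 92.2%) and in 64 of 243 other cells (26.3%, 20.9% to 32.3%). All 4 had a read in 18 Col2a1 cells and in 1 other cell. After every cell was thinned to 50000 reads, which left out 15 cells, the counts were 65 of 80 and 46 of 230 cells, or 81.25% and 20%. Without SAG plate 2 they were 37 of 49 (75.5%) and 53 of 220 (24.1%), and without both SAG plates, a set chosen after the data were seen, they were 15 of 27 (55.6%) and 52 of 212 (24.5%).

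The label did not hold on every plate. All 22 Col2a1 cells of SAG plate 1 and all 33 of SAG plate 2 had 2 or more of the 4 genes, against 1 of 8 and 11 of 23 other cells. It was 11 of 16 against 17 of 42 on GP plate 2. For PF plate 2 it was 2 of 6 against 10 of 47, and on GP plate 1 it was 0 of 3 against 5 of 17. The PF and GP plate 1 cells are therefore called only by their Col2a1 reads. On mm9, as placed by the GENCODE vM1 annotation, Col2a1 lies at chr15:97806033-97835155 on the minus strand, Lect1 at chr14:80037497-80061977 on the minus strand, Col9a1 at chr1:24184449-24259577, Acan at chr7:86198369-86259985 and Sox9 at chr11:112643538-112649074, the last 3 on the plus strand.

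A wider view came from 35 cartilage genes beside Col2a1. The median Col2a1 cell of SAG plate 1 had reads of 17 of them and the median other cell of 6. The medians were 11 and 4 on SAG plate 2, on GP plate 2 they were 8 and 6, and on PF plate 2 they were 8.5 and 6. On GP plate 1 both medians were 8. Both SAG plates thus showed the widest gap, although SAG plate 2 had far fewer genes per cell than any other plate.

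The collagens that are built into the type II fibril differed between the plates. Col9a1 had a read in 21 of 22 Col2a1 cells of SAG plate 1 and 1 of 8 other cells, with a median of 1645 CPM and a highest value of 9499 CPM in the Col2a1 cells. Col9a3, a second chain of the type IX trimer, had a read in 22 of 22 and 4 of 8 cells. Its lowest Col2a1 cell was at 162 CPM and the highest other cell at 424 CPM, so the classes overlapped only in that narrow range. On SAG plate 2 the same genes were read in few Col2a1 cells, Col9a1 in 9 of 33 and Col9a3 in 6 of 33, against 1 and 0 of 23 other cells. Col9a1 was read in 8 of 16 Col2a1 cells and 4 of 42 others of GP plate 2, and Col9a3 in 9 of 16 and 3 of 42.

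Type XI collagen, the core of the fibril, showed a split between its chains. Col11a1 was read in most cells of both classes on 4 plates: 22 of 22 and 6 of 8 on SAG plate 1, 15 of 16 and 35 of 42 on GP plate 2, 5 of 6 and 38 of 47 on PF plate 2 and 3 of 3 and 14 of 17 on GP plate 1. The exception was SAG plate 2, with 23 of 33 and 9 of 23. Col11a2 was read in 19 of 22 and 4 of 8 cells on SAG plate 1, 16 of 33 and 4 of 23 on SAG plate 2 and 10 of 16 and 1 of 42 on GP plate 2. On PF plate 2 it was read in 0 of 6 Col2a1 cells and 13 of 47 others.

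Across many genes, summed reads of the Col2a1 cells of a plate were compared with those of its other cells as log2 ratios of CPM + 1, which understates the change of low genes, and a gene was counted as higher or lower past 4-fold. Only genes with at least 10 CPM in 1 of the classes were counted. The background was large. Of all genes passing, 31% were 4-fold higher and 11.3% lower on SAG plate 1, 29.4% and 25.3% on SAG plate 2, 8.5% and 14.9% on GP plate 2, 10% and 34% on PF plate 2, and 8.31% and 47.5% on GP plate 1. Their median log2 ratio was 0.55, 0.12, -0.27, -0.44 and -1.55 on these plates, in the same order, and that of SAG plate 2 moved to 0.40 with TMM factors and to -0.02 with Rn45s counted. PF plate 1, COR plate 1 and COR plate 2 had too few Col2a1 cells to enter.

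Read against this background, the 35 cartilage genes stood highest on SAG plate 1. There 22 of the 29 passing genes were 4-fold higher and 0 were lower, with a median log2 ratio of 3.23. For SAG plate 2 it was 14 of 22 higher and 1 lower, with a median of 2.71, and on GP plate 2 it was 13 of 28 higher and 1 lower, with a median of 1.42. On SAG plate 1 a single Col2a1 cell held 34.2% of the reads of these genes in its class. Of the 8 other cells there, a single cell held 54.5% of their reads of these genes. In that class a single cell also held 62.9% of the matrix, 56.6% of the osteoblast, 63.8% of the fibroblast and 68.4% of the stress list reads. On GP plate 2 a single Col2a1 cell held 69.9% of the reads of the cartilage genes in its class. The median there was 0.42 without the cell with the most Col2a1 reads. On PF plate 2 the counts were 4 of 23 higher and 7 lower, close to the background, with a median of 0.52 that was -0.020 when Rn45s was counted. On GP plate 1 they were 2 of 21 higher and 11 lower, close to the background of 8.31% and 47.5%. The median there was -2.71, against -1.55 for all genes.

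Among matrix genes, 15 of 17 passing genes were 4-fold higher on SAG plate 1 with 0 lower (median 5.18), 8 of 10 on SAG plate 2 with 0 lower (median 3.76) and 8 of 16 on GP plate 2 with 0 lower (median 2.35). Of all genes on these plates, 31%, 29.4% and 8.5% were higher. Matn1, which encodes the cartilage adaptor protein matrilin 1, was read in 7 of 22, 6 of 33 and 3 of 16 Col2a1 cells of these plates and in no other passing cell of them. Its summed level was 2791, 303 and 276 CPM. Against a floor of 3 reads over the other cells, that was at least 1964-fold, 415-fold and 1507-fold higher. Matn1 was thus a gene of a minority of Col2a1 cells, and its top cell held 54.9% of the reads on SAG plate 1.

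Matn4, another matrilin, was read in all 22 Col2a1 cells of SAG plate 1, with 334 CPM as lowest and 1469 CPM as median, and in 2 of 8 others. Hapln1, the link protein, was read in 17 of 22 and 3 of 8 cells on SAG plate 1 and in 27 of 33 and 8 of 23 on SAG plate 2. It was 7 of 16 and 12 of 42 on GP plate 2, and on PF plate 2 it was 0 of 6 and 8 of 47. The proteoglycan Fmod, which binds collagen fibrils and is also made in tendon, was read in 22 of 22 and 3 of 8 cells on SAG plate 1. The order turned on GP plate 2, with Fmod read in 9 of 16 Col2a1 cells (median 27.1 CPM) and 34 of 42 others (median 3211 CPM).

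Lect1 was read in every Col2a1 cell of SAG plate 2. Its level there ran from 169 to 50182 CPM with a median of 14531 CPM, and 8 of 23 other cells had a read, up to 10323 CPM with a median of 0. The classes overlapped because of those 8 cells. It was 20 of 22 and 1 of 8 cells on SAG plate 1, with a median of 1710 CPM and a highest value of 11770 CPM in the Col2a1 cells. Only 3 of 16 Col2a1 cells of GP plate 2 had Lect1 reads, and 1 of them held 94.1% of those reads.

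Acan and Sox9 were read on both sides of the choice. Acan was read in 29 of 33 and 10 of 23 cells on SAG plate 2, in 14 of 22 and 2 of 8 on SAG plate 1, in 13 of 16 and 27 of 42 on GP plate 2 and in 5 of 6 and 20 of 47 on PF plate 2. Sox9 was read in 32 of 33 Col2a1 cells of SAG plate 2, with a median of 2181 CPM, and in 13 of 23 others, with a median of 540 CPM. Sox9 was read in 15 of 22 and 3 of 8 cells on SAG plate 1, and the summed log2 ratio was -0.13. In GP plate 2 it was 8 of 16 and 18 of 42 cells, at most 116 CPM in the Col2a1 cells. Sox9 was therefore read at similar shares in both classes of GP plate 2. Sox5 and Sox6, its partners, were read in 10 and 6 of the 22 Col2a1 cells of SAG plate 1 and in 1 and 2 of the 8 others.

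**Figure D2:**
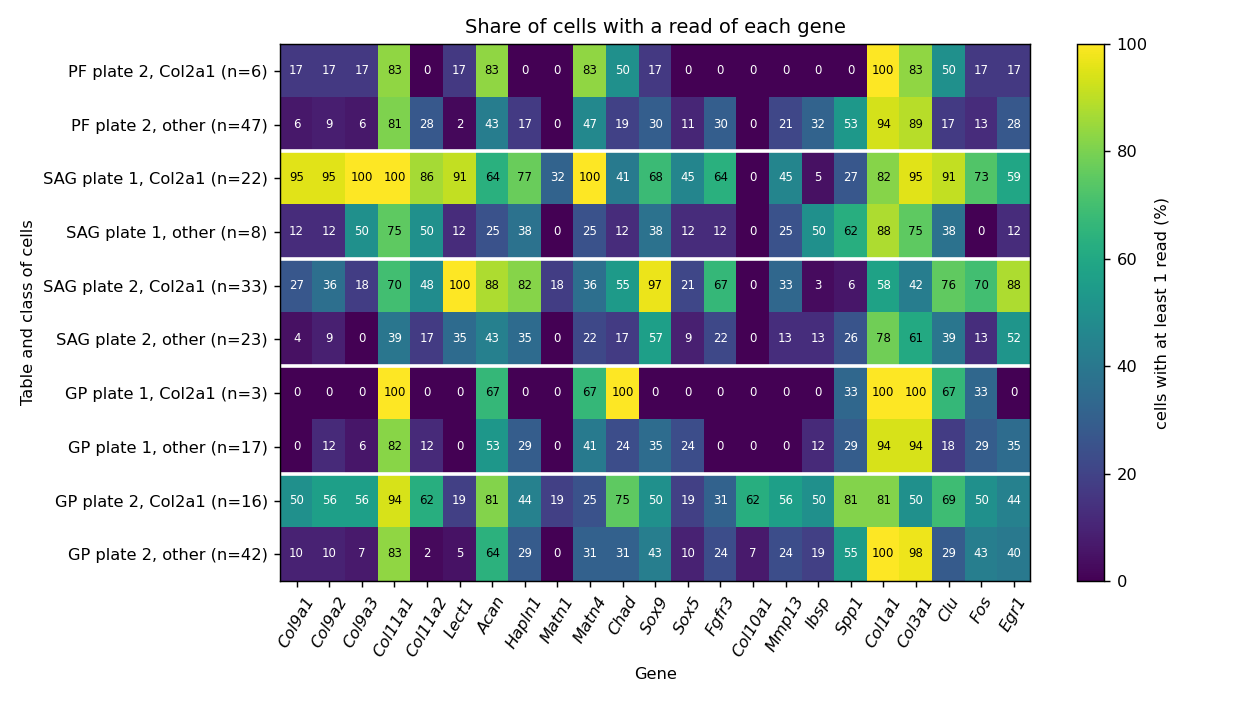
Each row is a class of cells on a plate with at least 3 Col2a1 cells, each column a gene, and colour and number give the percent of cells with at least 1 read. SAG plate 1 is filled from Col9a1 to Matn4 except for Matn1, SAG plate 2 is filled at Lect1, Acan, Hapln1 and Sox9 but not at the Col9 genes, and Col10a1 is filled in GP plate 2 only.

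Counted gene by gene, the enzymes that build and sulphate proteoglycan chains went with the Col2a1 class most on SAG plate 1. There 6 of 11 passing genes were 4-fold higher and 0 lower (median 3.55). It was 1 of 10 on SAG plate 2, on GP plate 2 it was 1 of 9 with a median of -0.10 that changed sign with the scaling, on PF plate 2 it was 0 of 8 with 3 lower and on GP plate 1 it was 1 of 8 with 3 lower. The summed level of these enzymes differed little on SAG plate 1, at 914 CPM in Col2a1 cells and 725 CPM in others. On SAG plate 2 it was 2351 and 1358 CPM. Chondrocyte transcription factors were 4-fold higher for 2 of 6 on SAG plate 1, close to the 31% of all genes there. For SAG plate 2 it was 3 of 6 with 1 lower. It was 1 of 6 with 0 lower on GP plate 2 (median -0.15, which changed sign with the scaling), 0 of 6 with 4 lower on PF plate 2 and 0 of 6 with 5 lower on GP plate 1. Growth plate signals, receptors and their targets were 4-fold higher for 5 of 8 on SAG plate 1 with 2 lower, 2 of 3 on SAG plate 2 with 1 lower, 2 of 6 on GP plate 1 with 1 lower and 4 of 9 on GP plate 2 with 1 lower, where the median of 1.03 changed sign with the scaling. On PF plate 2 it was 1 of 10 with 8 lower. Of all genes, 31% were higher and 11.3% lower on SAG plate 1, and 29.4% and 25.3% on SAG plate 2. The shares were 8.5% and 14.9% on GP plate 2, 10% and 34% on PF plate 2 and 8.31% and 47.5% on GP plate 1. Fgfr3, a receptor that slows chondrocyte division, was read in 14 of 22 and 1 of 8 cells on SAG plate 1 and in 22 of 33 and 5 of 23 on SAG plate 2, but in 5 of 16 and 10 of 42 on GP plate 2.

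Among the Col2a1 cells of a plate, the other cartilage genes followed the Col2a1 level to different extents. Over the 22 cells of SAG plate 1, Spearman's rho with Col2a1 CPM was 0.84 for Col9a1, 0.80 for Col9a3, 0.77 for Col11a2, 0.61 for Lect1 and -0.02 for Acan. Over the 16 cells of GP plate 2 it was 0.77 for Col11a2, 0.74 for Col9a1, 0.71 for Col9a3 and 0.60 for Acan. Over the 33 cells of SAG plate 2 it was 0.70 for Lect1 and 0.32 for Col9a1, and -0.46 with the cell's reads other than Rn45s. For Sox9 it was 0.39 on SAG plate 1, 0.36 on SAG plate 2 and -0.23 on GP plate 2, and for Lect1 on GP plate 2 it was 0.37. Such values were not particular to cartilage genes. Fos, of the immediate-early and stress genes described below, had 0.60 on SAG plate 1, 0.24 on SAG plate 2 and 0.10 on GP plate 2. These are descriptions over cells that share a plate and differ in depth.

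Col1a1, which encodes the main chain of type I collagen, the collagen of bone and fibrous tissue, divided the Col2a1 cells. Its median level was 1086 CPM in the Col2a1 cells of SAG plate 1 and 75535 CPM in its other cells. It was 1082 and 15083 CPM on SAG plate 2, and on GP plate 2 it was 293 and 50248 CPM. For PF plate 2 it was 48992 and 44880 CPM, and on GP plate 1 it was 55839 and 45783 CPM. The Col2a1 cells of PF plate 2 and GP plate 1 were thus at the level of their neighbours. The classes overlapped on every plate.

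Over all 82 cells, 37 lay below 1000 CPM of Col1a1, 22 at or above 10000 CPM and 23 between. These are ranges of a continuous level and not cell types, with 13 cells between 500 and 2000 CPM and 9 between 5000 and 20000 CPM. The cells below 1000 CPM were 16 on SAG plate 2, 11 on SAG plate 1, 9 on GP plate 2 and 1 on PF plate 2. The cells at or above 10000 CPM were 6 on GP plate 2, 5 on PF plate 2, 3 each on SAG plate 1, SAG plate 2 and GP plate 1, and 1 each on PF plate 1 and COR plate 2. The cartilage genes were also read in the SAG cells with high Col1a1. All 3 such cells of SAG plate 1 had reads of Col9a1, Lect1 and Sox9, and all 3 of SAG plate 2 had reads of Lect1, from 3364 to 46362 CPM, and Sox9.

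**Figure D3:**
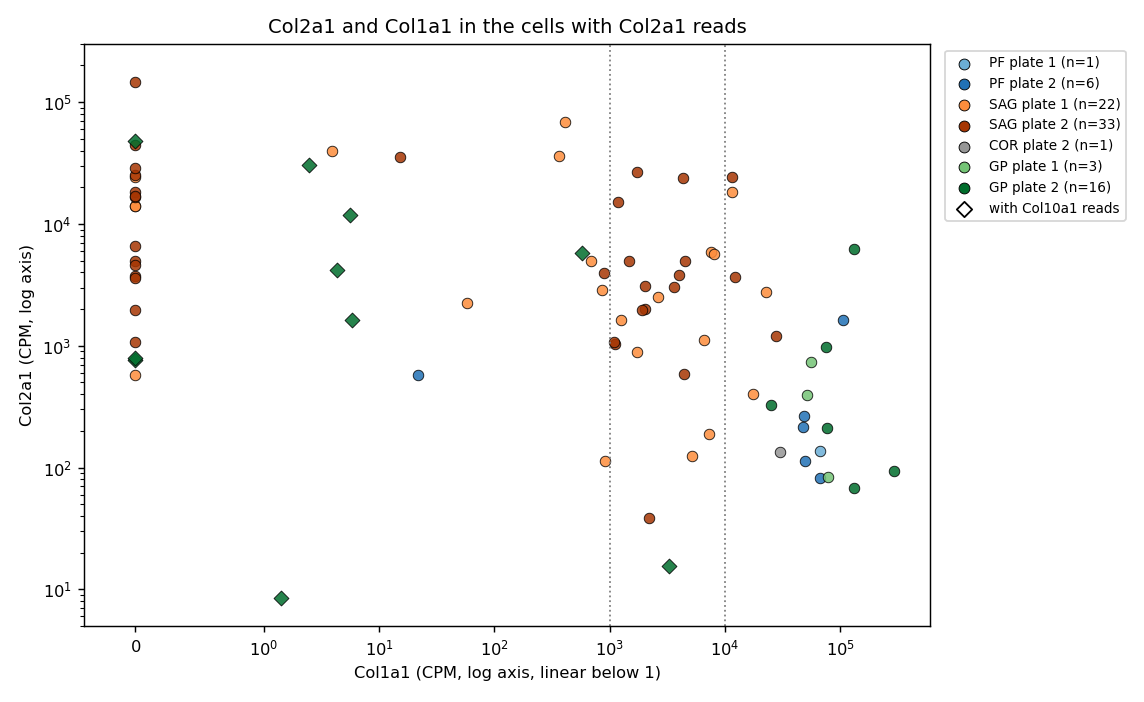
Each point is a Col2a1 cell, placed by its Col1a1 level (CPM, logarithmic above 1 and linear below) and its Col2a1 level (CPM, logarithmic), coloured by plate, with diamonds for cells with Col10a1 reads. Dotted lines mark 1000 and 10000 CPM of Col1a1. PF, COR and GP plate 1 cells lie to the right of 10000 CPM except for 1 cell of PF plate 2, and the diamonds, all from GP plate 2, lie below 1000 CPM except for 1.

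The division on GP plate 2 coincided with that of the hypertrophic cartilage genes. Col10a1 had a read in 10 of 16 Col2a1 cells and 3 of 42 other cells of this plate, with summed levels of 19505 and 1.46 CPM, and on the other plates in 1 passing cell, well E11 of COR plate 2, with 1 read. In the 9 Col2a1 cells with Col1a1 below 1000 CPM, Col10a1 was read in all 9, with 2204 CPM as lowest, 19449 CPM as median and 173869 CPM as highest. In the 6 cells with Col1a1 at or above 10000 CPM it was read in 0. The remaining cell, well D9, held 123 CPM. The highest other cell held 486 CPM, so every Col10a1 value of the 9 cells lay above every value of the other cells.

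The 9 cells also carried Spp1, which encodes osteopontin, a secreted protein of mineralizing tissue, in 9 of 9 cells, with 8132, 142646 and 502740 CPM as lowest, median and highest. Mmp13, the collagenase that cuts type II collagen, was read in 7 of 9 (median 10659 CPM), Ibsp, a mineral-binding protein, in 5 of 9 (median 4015 CPM) and Panx3, a membrane channel, in 6 of 9. Clu, which encodes the secreted chaperone clusterin, was read in 9 of 9 (median 2444 CPM). The same cells had reads of fibril genes, with Col9a3 read in 8, Col9a1 in 7 and Acan in 9 (40.8 to 3558 CPM), but Sox9 was read in 4 and at most 13.03 CPM, and Lect1 in 3. Bglap, the gene of the bone protein osteocalcin, had no read in any of the 9, though its near-identical copies make this value uncertain.

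The 6 cells with high Col1a1 differed from these in most cartilage genes. Col9a3, Lect1 and Col10a1 had no read in them, Col9a1 was read in 1, Acan in 3, Sox9 in 3 and Col11a1 in all 6, with Col2a1 at 68.1 CPM as lowest, 271 CPM as median and 6203 CPM as highest. Spp1 was read in 3 and passed 10000 CPM in 2 of them, wells A6 (27560 CPM) and F8 (30059 CPM). The fibroblast list, genes of collagenous connective tissue, summed to a median of 42161 CPM in these 6 cells and 1155 CPM in the 9. Spp1, Mmp13 and Ibsp were not limited to Col2a1 cells: 23, 10 and 8 of the 42 other cells had reads, with Spp1 up to 321141 CPM. The well with the highest Spp1, C1, had 650 genes with a read.

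**Figure D4:**
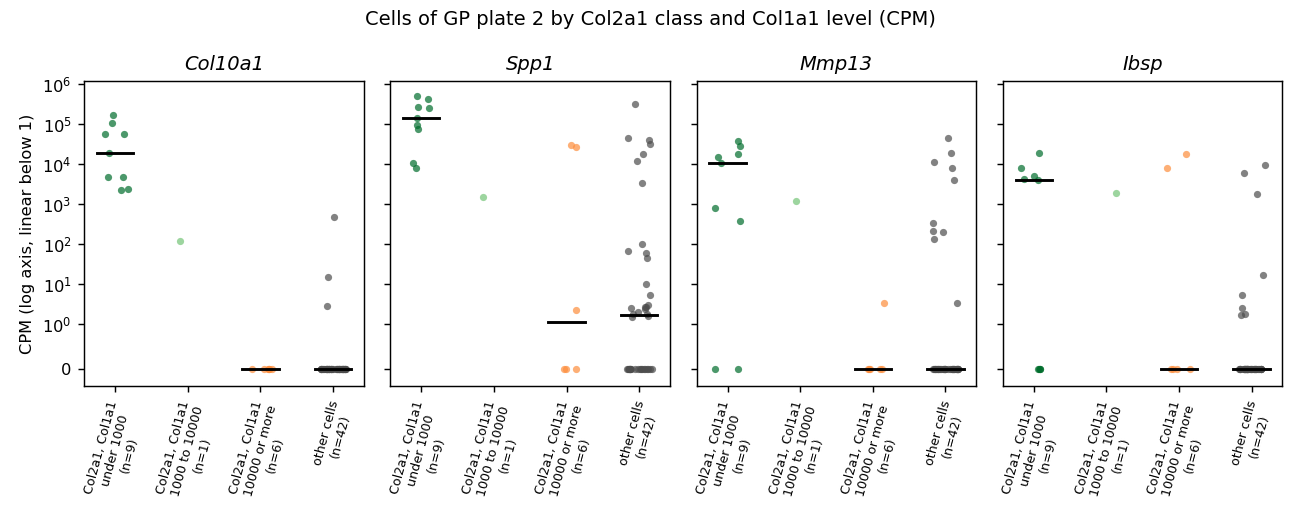
The panels show Col10a1, Spp1, Mmp13 and Ibsp in each cell of GP plate 2 (CPM, logarithmic above 1 and linear below), for Col2a1 cells with Col1a1 below 1000, between, and at or above 10000 CPM and for other cells, and bars are medians. Col10a1 separates the 9 cells of low Col1a1 from the 42 other cells without overlap, whereas Spp1, Mmp13 and Ibsp overlap.

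The promoters of 3 genes that set Col2a1 cells apart are printed, because they were read mainly in Col2a1 cells of these plates: Lect1 of the SAG plates, Matn1 of the SAG plates and GP plate 2, and Col10a1 of GP plate 2. Each is the 250 bases before the gene's start in the RefSeq table of GRCm38.p6, placed on mm9 by an exact match of which there was 1 for each, and read 5′ to 3′ on the gene's strand. The positions are chr14:80061991-80062240 (minus) for Lect1, listed there as Cnmd, chr4:130500050-130500299 (plus) for Matn1 and chr10:34109537-34109786 (plus) for Col10a1. Capitals mark ACAAAG and ACAATG, letters of the kind that SOX proteins bind, and TATAAA, each searched on both strands.
Lect1: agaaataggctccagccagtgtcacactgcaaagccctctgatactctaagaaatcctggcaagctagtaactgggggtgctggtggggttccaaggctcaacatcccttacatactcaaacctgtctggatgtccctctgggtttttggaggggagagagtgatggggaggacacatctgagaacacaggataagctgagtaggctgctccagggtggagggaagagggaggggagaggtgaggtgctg
Matn1: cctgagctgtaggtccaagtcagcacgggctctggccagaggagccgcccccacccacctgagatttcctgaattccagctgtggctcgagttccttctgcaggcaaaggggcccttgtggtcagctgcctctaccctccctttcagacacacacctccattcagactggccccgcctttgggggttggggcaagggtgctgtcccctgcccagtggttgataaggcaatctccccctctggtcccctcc
Col10a1: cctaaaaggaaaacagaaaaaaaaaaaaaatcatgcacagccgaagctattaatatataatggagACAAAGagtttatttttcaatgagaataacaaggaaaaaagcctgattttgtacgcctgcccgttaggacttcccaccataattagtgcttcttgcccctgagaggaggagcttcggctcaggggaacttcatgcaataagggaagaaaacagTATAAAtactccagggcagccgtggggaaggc
The Col10a1 window held ACAAAG and TATAAA once each, and the letters were not in the other pair of windows. ACAAAG or ACAATG stood in 25.2% and TATAAA in 12.4% of all 32851 windows of the table. Of the 37 windows of the 27 cartilage genes that had an entry, 10 (27.03%) held ACAAAG or ACAATG, a share near that of all windows. A match is a match of letters and not a site.

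Taken gene by gene, osteoblast genes went in opposite directions on the plates. On GP plate 2, 9 of 18 passing genes were 4-fold higher in Col2a1 cells and 0 lower, against 8.5% and 14.9% of all genes. The list median log2 ratio was 2.23, and 1.11 with cells weighted equally. The 9 higher genes included Dmp1 (7.51), Spp1 (5.23), Smpd3 (5.23), Ibsp (4.20), Ifitm5 (4.14), Bglap (3.80), Phex (3.06) and Bglap2 (2.52). Dmp1, Spp1, Ibsp, Bglap and Phex encode proteins that bind mineral or control it, and Spp1 and Ibsp are also made by hypertrophic chondrocytes. With cells weighted equally, the log2 ratio was 1.69 for Bglap2 and 1.22 for Phex, below 4-fold. Bglap was read in 1 of 16 Col2a1 cells and 13 of 42 others. For SAG plate 1 it was 0 of 18 higher and 15 lower (median -5.29), on SAG plate 2 it was 2 of 15 higher and 11 lower (median -3.40), on PF plate 2 it was 0 of 18 and 12 (median -5.64) and on GP plate 1 it was 0 of 15 and 8 (median -3.93). The lower share passed the background on each of these plates except GP plate 1, where it was close to the 47.5% of all genes. The summed list did not follow the median on GP plate 1, at 171930 CPM in Col2a1 cells and 118765 CPM in others. On PF plate 2 the sums were 135561 and 193679 CPM, with cell medians of 122985 and 123986 CPM. The sums were 26725 and 306609 CPM on SAG plate 1, 20582 and 89216 CPM on SAG plate 2 and 236757 and 162499 CPM on GP plate 2.

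Spp1 showed both ends. It was read in 6 of 22 Col2a1 cells of SAG plate 1, at most 1146 CPM, and in 5 of 8 others, up to 328729 CPM. On PF plate 2 it was read in 0 of 6 and 25 of 47 cells. Ibsp was read in 1 of 22 and 4 of 8 cells on SAG plate 1, in 1 of 33 and 3 of 23 on SAG plate 2 and in 0 of 6 and 15 of 47 on PF plate 2. Mmp13 did not follow them in SAG, with 10 of 22 and 2 of 8 cells on plate 1 and 11 of 33 and 3 of 23 on plate 2. Mmp9, a gelatinase best known from osteoclasts, was read in 18 of 22 Col2a1 cells of SAG plate 1, up to 95710 CPM, and in 3 of 8 others, while Mmp9 was the only 1 of 3 passing osteoclast genes past 4-fold there. The hypertrophic list had 1 of 4 passing genes higher and 3 lower on SAG plate 1, 0 and 2 of 3 on SAG plate 2, 0 and 4 of 4 on PF plate 2 and 0 and 3 of 4 on GP plate 1, against 4 and 0 of 6 on GP plate 2, namely Col10a1 (12.95), Mmp13 (3.12), Panx3 (3.08) and Runx3 (2.09). Of all genes, 31% were higher and 11.3% lower on SAG plate 1. The share lower was 25.3% on SAG plate 2, 34% on PF plate 2 and 47.5% on GP plate 1. On GP plate 2, 8.5% of all genes were higher.

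The few cells of PF and COR are given 1 by 1. Of the 6 cells of PF plate 2, wells A8, B8, B10, E12 and F5 had 47264 to 105855 CPM of Col1a1, with Acan and Col11a1 read in all 5. Well E1 differed, with 21.6 CPM of Col1a1, 629 CPM of Col9a3, 1862 CPM of Mia, a small secreted protein of cartilage, 9369 CPM of Fos, 7197 CPM of Clu and no Acan read. The cell of PF plate 1, well B12, had 7 Col2a1 reads, with 757 CPM of Col9a1 and 349 CPM of Acan. The cell of COR plate 2, well A7, had 64 Col2a1 reads, with 83.8 CPM of Sox9, 109 CPM of Acan and 12590 CPM of Spp1. Except for well E1, these cells held high Col1a1 beside 1 or more cartilage genes.

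The 3 cells of GP plate 1, wells A1, B2 and B9, are given together. All had reads of Col11a1, of Fmod from 11018 to 20403 CPM, of Chad, a cartilage matrix protein that binds cells, from 484 to 5412 CPM, and of Tnmd, the tendon and ligament relative of Lect1, from 2823 to 15478 CPM. None had a read of Col9a1, Col9a2, Col9a3, Sox9, Lect1 or Col10a1. The other cells of the same plate shared part of this, with Fmod read in 12 of 17, up to 15405 CPM, Tnmd in 9 of 17, up to 8957 CPM, and Chad in 4 of 17, up to 1883 CPM. Tnmd was also read in 23 of 42 other cells of GP plate 2 and in 6 of its 16 Col2a1 cells.

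Immediate-early and stress genes, which respond within minutes to handling or signals, moved with the Col2a1 class in SAG. Of this list, 13 of 16 genes on SAG plate 1 were 4-fold higher and 0 lower (median 6.20), and on SAG plate 2 it was 12 of 14 and 0 (median 3.41). Of all genes on these plates, 31% and 29.4% were higher. The summed list had a median of 4918 CPM in Col2a1 cells and 267 CPM in others on plate 1, and of 25088 and 996 CPM on plate 2. Fos was read in 16 of 22 Col2a1 cells of SAG plate 1 and in 0 of 8 others, at least 7175-fold higher over a floor of 3 reads, and in 23 of 33 and 3 of 23 on SAG plate 2. Egr1 was read in 13 of 22 and 1 of 8, and in 29 of 33 and 12 of 23. In GP plate 2 the list had 3 of 15 higher and 1 lower (median 0.79), on PF plate 2 it was 5 of 13 and 4 (median 0.75), and on GP plate 1 it was 0 of 13 and 9 (median -5.21). Of all genes, 8.5% were higher and 14.9% lower on GP plate 2, and 10% and 34% on PF plate 2. The shares were 8.31% and 47.5% on GP plate 1. The part of the immediate-early and stress genes in the SAG differences was not tested. Hspa1a and Hspa1b are near-identical, and reads may be shared between them.

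Cell cycle genes were not higher in most Col2a1 classes. None of 18 passing genes was 4-fold higher on GP plate 2 and 11 were lower (median -3.76), on GP plate 1 it was 0 and 16 of 18 (median -5.59), on PF plate 2 it was 3 and 8 of 15 (median -4.08) and on SAG plate 2 it was 0 and 4 of 5 (median -4.27). Of all genes, 8.5% were higher and 14.9% lower on GP plate 2, and 8.31% and 47.5% on GP plate 1. The shares were 10% and 34% on PF plate 2 and 29.4% and 25.3% on SAG plate 2. On SAG plate 1, 3 of 11 cell cycle genes were higher and 2 lower, against 31% and 11.3% of all genes. The median of 0.65 there changed sign with the scaling. At least 1 gene of the 20 was read in 20 of 22 Col2a1 cells of SAG plate 1 and 14 of 16 of GP plate 2. Ribosomal protein genes had medians of -0.43, 0.23, -0.28, -0.22 and -0.04 on SAG plate 1, SAG plate 2, GP plate 2, PF plate 2 and GP plate 1, the second of which changed sign with the scaling. All genes had medians of 0.55, 0.12, -0.27, -0.44 and -1.55 on these plates, so the ribosomal protein genes lay below them on SAG plate 1 and above them on GP plate 1. On SAG plate 2 only 22 of 83 ribosomal protein genes passed. Their sum there was 1318 CPM in Col2a1 cells and 1223 CPM in others, against 19721 and 28441 CPM on SAG plate 1.

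Tendon and fibroblast genes were lowest on GP plate 2. On GP plate 2, 4 of 6 tendon genes (median -2.55) and 4 of 12 fibroblast genes (median -1.59) were 4-fold lower in Col2a1 cells and 0 higher. Of all genes there, 14.9% were lower and 8.5% higher. The tendon median was 0.65 on SAG plate 1, 1.56 on SAG plate 2, 1.09 on PF plate 2 and 0.14 on GP plate 1, the last of which changed sign with the scaling. The fibroblast median was 0.80, -0.86, 0.51 and 0.56 on these plates, so it was also below 0 on SAG plate 2. On SAG plate 1 the median of all genes was 0.55. The summed fibroblast list there was lower in Col2a1 cells, at 11669 CPM against 21414 CPM in others. Prg4, the lubricant of joint surfaces and tendon, was read in 11 of 33 Col2a1 cells of SAG plate 2 and 5 of 22 of SAG plate 1, in no other cell of either plate, and in 0 of 16 on GP plate 2. Col3a1, the collagen of loose fibrous tissue, was read in 8 of 16 Col2a1 cells of GP plate 2 (median 2.91 CPM) and 41 of 42 others (median 19637 CPM).

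**Figure D5:**
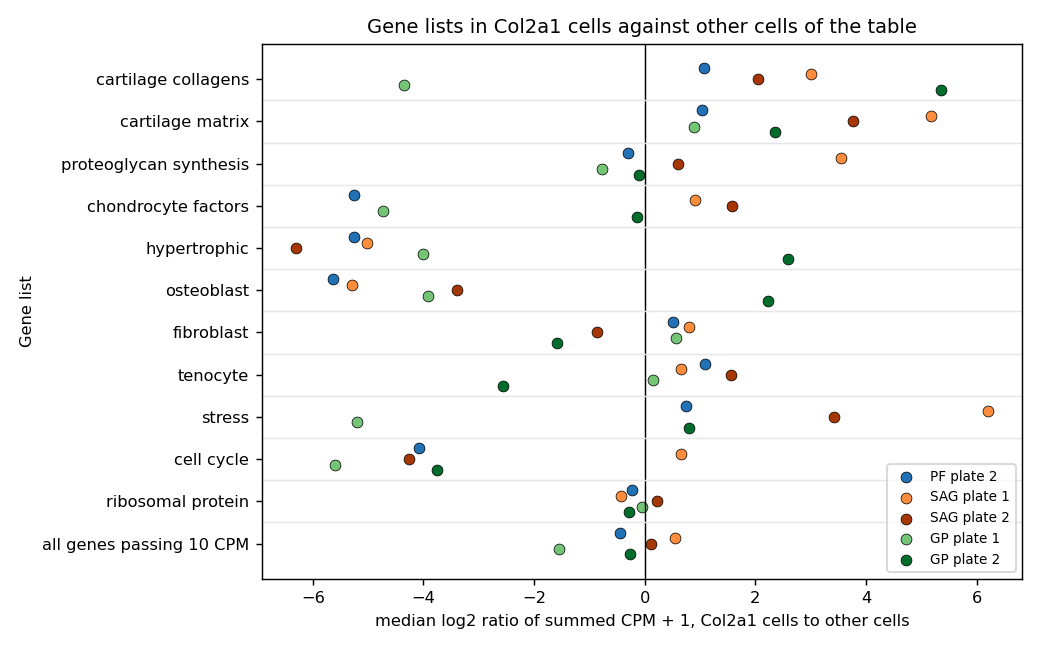
Each point is the median log2 ratio of the passing genes of a list (rows), Col2a1 cells to other cells, by plate, and the bottom row gives all passing genes. Cartilage matrix lies right of 0 on all plates, and osteoblast and hypertrophic genes lie right of 0 on GP plate 2 only. In the stress row the SAG plates lie farther right than the other plates. Stress is the list farthest right on SAG plate 1 (6.20), and on SAG plate 2 (3.41) cartilage matrix (3.76) lies right of it.

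Markers of cells that the sort should have removed were read in some Col2a1 cells. The genes of 5 proteins that the sort selected against, Ptprc, Tek, Thy1, Enpep and Eng, had a read of at least 1 of them in 6 of 22 Col2a1 cells of SAG plate 1, up to 510 CPM, and in 0 of 8 others. It was 2 of 6 and 8 of 47 cells on PF plate 2, 1 of 33, with 2004 CPM, and 2 of 23 on SAG plate 2, 1 of 16 and 2 of 42 on GP plate 2 and 0 of 3 and 1 of 17 on GP plate 1. Endothelial genes, 8 in all, had a read in 3 of the 22 Col2a1 cells of SAG plate 1 and in no Col2a1 cell of the other plates, and Pecam1 and Tek, which encode defining proteins of endothelium, were at 0 in all 82. Ptprc, the gene of CD45, was read in 1 of 82 Col2a1 cells and 4 of 243 others. Of 9 blood cell genes, a read was seen in 4 of 22 cells on SAG plate 1, 4 of 16 on GP plate 2, 3 of 6 on PF plate 2 and 2 of 3 on GP plate 1, at most 342 CPM in a cell. The blood cell genes summed to 93.8 CPM in the GP plate 1 cells against 0.73 CPM in its other cells. Glial and neural genes were read in 11 of 22 and 1 of 8 cells on SAG plate 1, up to 546 CPM, and in 0 of 33 on SAG plate 2. The part of any of these in the results was not tested.

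In the Col2a1 cells, genes that mark the position along the body split by tissue label. Of 15 hindlimb genes, such as Tbx4, Pitx1 and the Hox genes, at least 1 was read in 3 of 3 Col2a1 cells of GP plate 1 and 12 of 16 of GP plate 2, and none in the Col2a1 cells of any suture plate. Of 10 cranial genes, such as Alx1, Alx4 and Zic1, at least 1 was read in 18 of 22 and 24 of 33 Col2a1 cells of the SAG plates. It was 4 of 6 on PF plate 2, 0 of 1 on PF plate 1 and 1 of 1 on COR plate 2, and none in the Col2a1 cells of GP. The split was less clean in the other cells. There cranial genes were read in 5 of 42 cells of GP plate 2 and 1 of 17 of GP plate 1, and hindlimb genes in 1 of 33 of PF plate 1. Itgav or Cd200, the genes of the proteins that the sort selected, was read in 19 of 22, 14 of 16, 5 of 6 and 3 of 3 Col2a1 cells of SAG plate 1, GP plate 2, PF plate 2 and GP plate 1, and in 4 of 33 on SAG plate 2. A record of 1 Col2a1 cell, well A10 of SAG plate 1, named a PF plate in its description and SAG in its title, and it was kept in SAG.

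Hardly any gene was past 4-fold on all 5 plates. Of 4226 genes passing on every plate, 1 was higher (0.0237%) and 4 were lower (0.0947%). The higher gene was Otub2, a deubiquitinase, with log2 ratios of 4.90, 3.95, 6.81, 2.87 and 2.64 on SAG plate 1, SAG plate 2, GP plate 1, GP plate 2 and PF plate 2. It was read in only 3 of 22, 1 of 33, 1 of 3, 2 of 16 and 1 of 6 Col2a1 cells, and 1 cell held 67.2% to 100% of its reads on each plate. The lower genes were Cab39l, Jade1, Prps2 and Ptprz1, with Ptprz1, a receptor phosphatase, read in 0 of 22, 0 of 33, 0 of 3, 3 of 16 and 0 of 6 Col2a1 cells and in 2 of 8, 3 of 23, 3 of 17, 5 of 42 and 6 of 47 others. With a pseudocount of 10 CPM none of the 5 was counted. With at least 20 Col2a1 reads or 50 CPM in place of 5 reads, the higher gene was another and Otub2 was not past 4-fold on all plates. None of these 5 was read in most Col2a1 cells of a plate.

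Among genes outside all of the gene lists, ranked by the share of cells with a read, Clu differed most. The direction was the same on PF plate 2, SAG plate 1, SAG plate 2 and GP plate 2. Clu had at least 32.98 percentage points between the classes on each. It was read in 3 of 6 and 8 of 47, 20 of 22 and 3 of 8, 25 of 33 and 9 of 23, and 11 of 16 and 12 of 42 cells. The transcription factor Zbtb20 also ranked high (18.4 points). In the other direction stood S1pr1, a lipid receptor (23.9 points), Bscl2, a protein of lipid droplet formation (17.9 points), and Fhl1, a LIM protein (14.8 points). In all, 722 of 24014 genes had the higher share in Col2a1 cells on these 4 plates and 292 the lower.

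Another matrix list gene was read in Col2a1 cells of some plates only, and in most of them on SAG plate 1 alone. The gene listed as 3110079O15Rik, known as Snorc, encodes a proteoglycan of chondrocytes and was read in 17 of 22 Col2a1 cells of SAG plate 1, 6 of 33 of SAG plate 2 and 7 of 16 of GP plate 2 and in no other passing cell of these plates. Against a floor of 3 reads over the other cells, its summed level was at least 77.7-fold higher on SAG plate 1 (110 CPM) and at least 438-fold higher on GP plate 2 (80.1 CPM). On SAG plate 2 it was low, with 25 reads in all, at least 5.50-fold higher. The Col2a1 cells of PF, COR plate 2 and GP plate 1 had no read of it.

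The summed profiles of the Col2a1 classes were compared across 12112 genes, which are not independent replicates, with Pearson's r of log2(CPM + 1). SAG plate 1 and GP plate 2 had an r of 0.68 and PF plate 2 and SAG plate 1 an r of 0.54. This likeness was not particular to the Col2a1 classes, since the Col2a1 cells of SAG plate 1 had an r of 0.69 with the other cells of GP plate 2 and of PF plate 2 alike, and those of PF plate 2 had an r of 0.61 with the other cells of their own plate. The Col2a1 cells of SAG plate 1 and SAG plate 2 had an r of 0.40, while those of SAG plate 2 and the other cells of the same plate had an r of 0.61. The 2 classes of SAG plate 2 were thus more alike than the Col2a1 classes of the SAG plates.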

How the data were processed

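Single cells were sorted into wells and sequenced in the SMART-seq2 manner, without molecular identifiers. The authors deposited raw read counts per gene and cell, in 8 tables of 24015 genes. The submitters' processing notes name mm9, STAR 2.5.3a, HTSeq, R 3.4.4 and Seurat 2.3.0, and whether counting used strand is not given in the sources used here, so overlapping genes cannot be told apart. Groups came from titles and source names. No column was left without a cell.

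Cells with at least 500 genes and 10000 reads, Rn45s counted, were kept. Reads were summed over the Col2a1 cells (at least 5 reads) and the other cells of a table and scaled to CPM without Rn45s. Tables with at least 3 cells in each class (5 for shares of cells with a read) entered comparisons, genes needed 10 CPM in 1 class, and ratios are log2(CPM + 1) differences counted past 4-fold. The text names the markers, the genes past 4-fold on all plates, the genes of the cartilage lists and the 4 most abundant of each other list. It also names the genes leading the ranking by share, which covered only genes outside the lists. Wells named singly, Ibsp, Runx3 and the osteoblast genes past 4-fold on GP plate 2 were chosen for mention after their values were seen. The members and lists were chosen with earlier results of these data known. No test was run, because the contrast is that of the choice and cells are not replicates. Intervals are exact (Clopper-Pearson, 95%), and the floor for 0 is 3 counts. Promoter windows came from RefSeq. Alternatives covered the threshold, cell filter, thinning to 50000 reads, Rn45s, TMM factors, pseudocount and leaving out tables or cells. Python 3.11.15, pandas 2.3.3, numpy 2.4.6, scipy 1.17.1, matplotlib 3.10.9, R 4.3.3 and edgeR 4.0.16 (TMM factors only) were used, and the code was tested on simulated data. Some genes that met these rules are not reported here.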

Additional observations from a re-analysis of the deposited data

Results flagged for a closer look

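Of the 35 cells that failed the filter and entered no comparison, 6 had a Col2a1 read and 3 had at least 5, with 1674 reads in the highest. They were picked out because this signal lies in cells outside the comparisons.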

How the results depend on the processing

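No paired analysis was possible because plates of different tissues share only a number and no test was run. The number of Col2a1 cells (82) and of those with at least 2 of Lect1, Col9a1, Acan and Sox9 (70) moved by at most 1.5 times, and the cartilage and osteoblast list medians of the 5 plates by less than the SD between plates (2.35 and 3.18 log2 units, a wide range), with these exceptions. The stricter cell filter of 1500 genes and 50000 reads, which left 237 cells and 0 of SAG plate 2, gave 45 and 33 cells. The PF plate 2 cartilage median was -0.020 with Rn45s counted and -0.53 with no filter on low genes. Within that range, the GP plate 2 cartilage median went from 1.42 to 0.42 without the cell with the most Col2a1 reads, the GP plate 2 osteoblast median from 2.23 to 1.11 with cells weighted equally and the GP plate 1 osteoblast median from -3.93 to -1.27 with a pseudocount of 10 CPM. The counts of genes 4-fold higher and lower on all plates, 1 and 4, were unsteady: 2 and 2 with at least 1 Col2a1 read, 3 and 23 with the stricter filter, 0 and 11 with thinned cells, 10 and 9 without the cell with the most Col2a1 reads of each plate, and 0 and 0 with a pseudocount of 10 CPM. The higher count was 0 with Rn45s counted and 2 with TMM factors. The lower count was 8 with at least 20 Col2a1 reads and 7 with at least 50 CPM, where the higher count was 1 but shared 0 genes with the main one, and 8 with no filter on low genes. Leaving out each plate in turn gave 49 to 82 Col2a1 cells, 37 to 70 with 2 or more of the 4 genes, 1 to 10 genes higher and 4 to 43 lower. Without SAG plate 2 the last pair was 2 and 23, without GP plate 1 it was 10 and 9, without GP plate 2 it was 7 and 41, without PF plate 2 it was 7 and 12 and without SAG plate 1 the lower count was 43. Fewer plates are compared in these. Other scalings of the list medians, added after the data were seen, changed the sign of 12 of 115 medians. Without molecular identifiers, the 3-read floor and the intervals allow for counting error alone.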

Other observations

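Wells in the row or column of the cell with the most Col2a1 reads held 8 of 21 remaining Col2a1 cells and 3 of 8 other cells on SAG plate 1, 10 of 32 and 5 of 23 on SAG plate 2, 2 of 15 and 9 of 42 on GP plate 2, 2 of 5 and 10 of 47 on PF plate 2 and 1 of 2 and 5 of 17 on GP plate 1. Of the passing cells, 1 Col2a1 cell, on SAG plate 2, and 0 other cells had reads of Xist together with those of a Y-linked gene. The most alike pair that included a Col2a1 cell had a Pearson correlation of 0.59 across genes (wells A6 and F8 of GP plate 2).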
